A study of Arabidopsis thaliana with 32 samples.

Results

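The plastid genome of Arabidopsis was represented in the count tables by 133 gene identifiers that start with ATCG, out of 37336 genes in all. Of these, 34 had no count in any of the 32 libraries and 99 had at least 1. The genes described here are those with a total of at least 10 counts over the 16 libraries of a tissue, which were 89 in shoots and 72 in roots. All 72 root genes were also among the 89, and 17 passed in shoots alone. Another 10 genes in shoots and 21 in roots had totals of 1 to 9 and were left out. In shoots the genes just inside the limit were ATCG00240 and ATCG00390 with 11 counts each, and the gene just outside it was ATCG00010 with 7. In roots these were ATCG00620 with 12 counts and ATCG00690 with 8.

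The plastid genome is a small circular chromosome that codes for core subunits of the photosystems, the cytochrome complex, ATP synthase and the NADH dehydrogenase-like complex, the large subunit of Rubisco, ribosomal proteins and RNAs, transfer RNAs and a subunit of the Clp protease. A plastid-encoded RNA polymerase, which works with sigma factors and associated proteins made in the nucleus, and a nuclear-encoded phage-type polymerase share the transcription of these genes. Libraries of 3′RNA-seq start from an oligo(dT) primer and therefore favour polyadenylated RNA. In plastids a poly(A) tail is short-lived and marks RNA for decay, and stretches of A inside a transcript can also prime the reaction. The counts are thus a measure of plastid RNA captured by oligo(dT), not of all plastid RNA.

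The study followed the quadruple mutant q-lsu-KO, in which LSU1, LSU2, LSU3 and LSU4 are knocked out. LSU proteins belong to a plant-specific family whose transcripts accumulate under sulfur deficiency. The mutant was compared with wild-type Col-0 plants (WT). Seedlings grew for 10 days on agar with normal sulfur ([nS], 1 mM sulfate) and for another 5 days either on sulfur-deficient medium ([dS], with magnesium chloride in place of the sulfate salt) or on [nS]. Shoots and roots of the 15-day-old plants were extracted separately, each RNA sample coming from at least 10 seedlings. This gave 8 groups of 4 libraries: q-lsu-KO and WT under [dS], and q-lsu-KO and WT under [nS], in each tissue. The mutant is a single transgenic line, and how its deletions were made is not given in the sources used here.

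Library totals were between 893225 and 2857129 counts. Both genotypes of a tissue and sulfur condition shared 1 of the 4 sequencing pools. Differences by sulfur supply or by tissue therefore cannot be told apart from differences by pool, which does not hold for differences by genotype. LSU2 had 2 to 25 counts in the 16 q-lsu-KO libraries, against 192 to 1202 in the 16 WT libraries. Tags of the other LSU genes were present in the mutant, with 306 to 6611 counts for LSU1, 45 to 1045 for LSU3 and 22 to 265 for LSU4, against 163 to 4676, 30 to 894 and 5 to 69 in WT. A 3′ tag does not show whether those transcripts are intact. The summed level of 12 shoot marker genes was 61612 to 86913 CPM (counts scaled to 1e+06 per library) in shoots, against 103 to 491 CPM in roots, and that of 5 root marker genes was 362 to 607 CPM in shoots, against 4756 to 7332 CPM in roots.

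The count tables carry identifiers only, and the reference annotation (RefSeq, TAIR10.1) lists the plastid genes under other tags. Notes to nuclear genes in that annotation describe a few of the plastid identifiers. Among them are ATCG00670 (clpP, the plastid-encoded subunit of the Clp protease), ATCG00660 (rpl20) and ATCG01310 (rpl2), which code for ribosomal proteins, and ATCG00530 (cemA, an envelope protein related to proton extrusion). A note also describes ATCG00430 as photosystem II reaction center protein G. No plastid gene symbol in the reference matches that name, so no role is given to ATCG00430 here. The other members are given by identifier, with no role. Because oligo(dT) priming depends on A, the longest run of A on the transcribed strand is shown in capitals for 3 of these genes that had counts and a place of their own in the plastid genome (chromosome Pltd of RefSeq's TAIR10.1, 154478 bases), within 30 bases written 5′ to 3′.
clpP: cacaccgtAAAAAAAAAAAAAgacactttg
rpl20: tatacaatttcgaatgacatAAAAAAAtaa
cemA: atggcAAAAAAgaaagcattcattcctttt

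The stretch of clpP lay at Pltd:70395-70424 on the minus strand, in an intron of the gene (69910 to 71882). Those of rpl20 (Pltd:68512-68541, minus strand, at the end of the gene) and cemA (Pltd:60741-60770, plus strand, at the start of the gene) were coding sequence. The run was 13 bases long in clpP, 7 in rpl20 and 6 in cemA. Over the 87 annotated protein-coding genes of the plastid genome the longest run of A was 2 to 14 bases, with a median of 6, and 25.3% held a run of 8 or more. Of the 3 genes shown, only clpP is thus among the 25.3% with a long run, and the others are near the median. Mean CPM over the 16 libraries of a tissue was 238 in shoots and 79.4 in roots for clpP, 47.2 and 14.1 for rpl20, and 76.4 and 4.24 for cemA. Whether the length of the run goes with the level was not tested, and 3 genes cannot show it. A stretch of A is a description of the sequence and not a priming site.

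The 34 identifiers without a count fell into 4 blocks of consecutive identifiers, from ATCG00830 to ATCG00900 (8), ATCG00910 to ATCG00940 (4), ATCG00960 to ATCG00990 (4) and ATCG01140 to ATCG01310 (18). The last block holds rpl2 (ATCG01310). In the reference rpl2 lies at both 84337 to 85843 on the minus strand and 152806 to 154312 on the plus strand, 1 copy in each inverted repeat, and 33 of the 131 annotated plastid genes have their whole sequence in the plastid genome more than once. A read from such a gene has more than 1 place of origin. How the counting program treated those reads is not given in the sources used here, so a count of 0 in these blocks does not show that the RNA is absent. The nuclear pseudogene that the annotation ascribes to ATCG00420 also had 0 counts in all 32 libraries.

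Plastid genes took 4.33% to 5.60% of all counts in the 16 shoot libraries, against 0.236% to 0.405% in the 16 root libraries. In WT under [nS] the share was 5.05% ± 0.213 in shoots and 0.269% ± 0.0243 in roots (SD, n = 4 each), an 18.8-fold difference. The groups did not overlap, and the exact two-sided permutation test gave p = 0.0286, which is the smallest value that 4 against 4 libraries allow. In bulk RNA, fewer plastids or green cells and less plastid RNA per cell cannot be told apart. The number of plastid genes detected was 85 to 92 per shoot library and 65 to 80 per root library. As a mean of all libraries, roots reached 6.67% of the plastid share of shoots, whereas the sum of the 12 shoot marker genes in roots was 0.325% of that in shoots. Mitochondrial genes went the other way, with 0.129% to 0.293% of counts in shoots and 1.27% to 2.37% in roots.

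**Figure D1:**
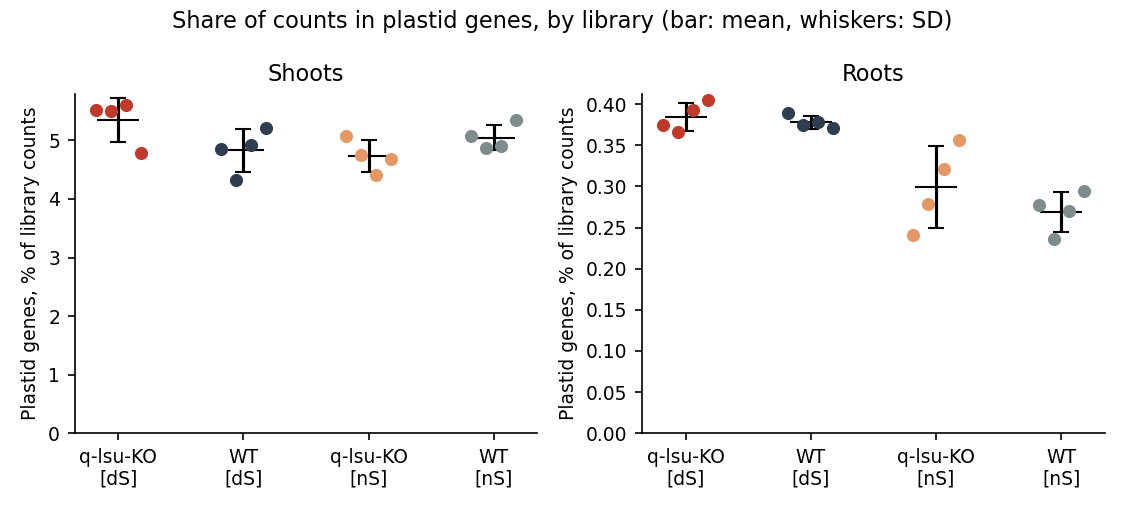
Share of all counts that fell on plastid genes (y axis, percent), by group (x axis), with 1 point for each of 32 libraries, the mean as a bar and the SD as whiskers. Shoot libraries lie between 4.33% and 5.60% and root libraries between 0.236% and 0.405%, and in roots all [dS] libraries lie above all [nS] libraries.

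A few genes held most of the plastid counts. In shoots ATCG00470 took 18.4% of them, the top 3 (ATCG00470, ATCG00340 and ATCG00220) took 42.1%, and the top 10 took 69.2%. In roots ATCG01130 took 21.1%, the top 3 (ATCG01130, ATCG00470 and ATCG00500) took 38.1% and the top 10 took 67.0%. In each tissue 5 genes made up 50% of the plastid counts, and 29 genes in shoots and 26 in roots made up 90%. Only 5 genes (ATCG00340, ATCG00470, ATCG00540, ATCG01020 and ATCG01130) were in the top 10 of both tissues. By mean CPM the 10 highest in shoots were ATCG00470 (9298), ATCG00340 (6407), ATCG00220 (5408), ATCG00300 (2466), ATCG00330 (2422), ATCG01020 (2166), ATCG00630 (1923), ATCG01130 (1560), ATCG00540 (1528) and ATCG00440 (1400). In roots they were ATCG01130 (695), ATCG00470 (295), ATCG00500 (277), ATCG00790 (218), ATCG00740 (209), ATCG00340 (134), ATCG00800 (107), ATCG01020 (98.0), ATCG00540 (97.8) and ATCG00820 (87.5). These levels were not divided by gene length. They rank the genes by RNA captured by oligo(dT), not by number of transcripts.

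The plastid genes differed widely in how much of the shoot level remained in roots. Among the 72 genes used in both tissues, root CPM was 0.725% (ATCG00630) to 105.6% (ATCG00500) of shoot CPM, with a median of 5.39%. In 14 genes it was at least 20%, among them clpP (33.3%), rpl20 (29.9%), ATCG01130 (44.5%) and ATCG00790 (22.1%), whereas cemA was at 5.55%. Across the 72 genes, log2 CPM in roots and shoots had a Pearson r of 0.765 and a Spearman rho of 0.768, as a description of genes that share libraries.

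**Figure D2:**
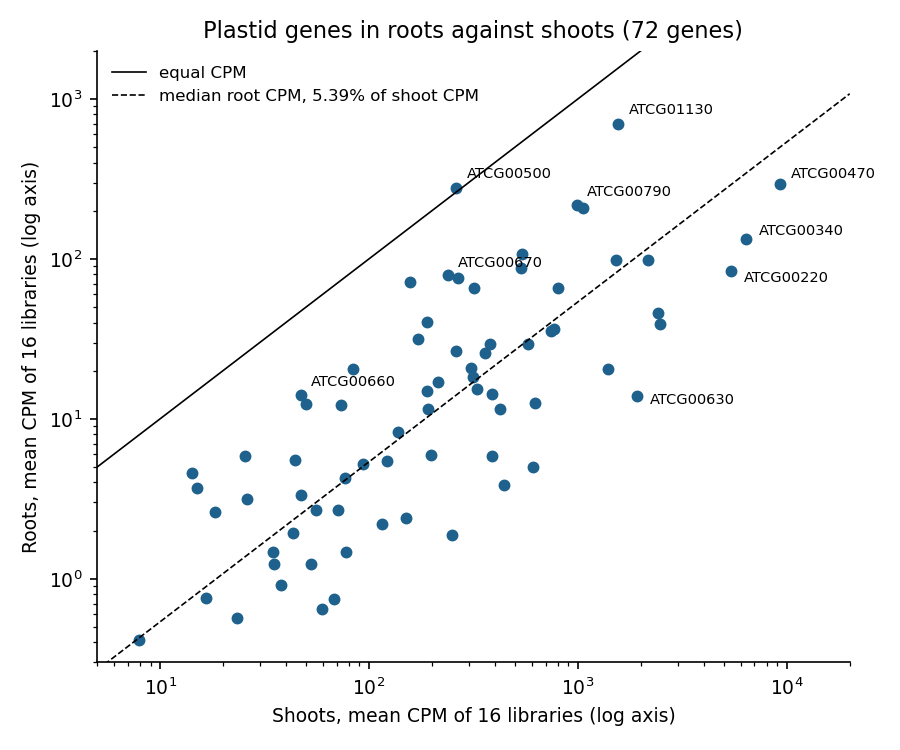
Mean CPM over 16 root libraries (y axis, log scale) against mean CPM over 16 shoot libraries (x axis, log scale) for the 72 plastid genes used in both tissues, with a solid line for equal CPM and a dashed line for the median root level of 5.39% of shoot CPM. ATCG00500 lies on the line of equal CPM, and ATCG00630 lies farthest below the dashed line.

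In WT under [nS], ATCG00500 had 309, 300, 264 and 339 CPM in the 4 shoot libraries, against 208, 150, 206 and 406 CPM in the 4 root libraries. One root library was above every shoot library, so the groups overlapped. ATCG01130 had 1914, 1894, 1980 and 2098 CPM in shoots and 564, 532, 579 and 620 CPM in roots, with no overlap. ATCG00630 had 2608, 1518, 2154 and 2171 CPM in shoots and 11.7, 9.55, 13.7 and 14.0 CPM in roots, again with no overlap.

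The tissues were also compared gene by gene with edgeR's quasi-likelihood test, in which a gene is called when its Benjamini-Hochberg adjusted p over all genes is under 0.05 and its fold change over 1.5. A filter on low counts left 81 plastid genes in the model of both tissues. Of these, 48 also passed the filter in root libraries alone, and only these can be read for a difference, since the others passed through shoots, where they are high. All 48 were called higher in WT shoots than in WT roots under [nS] (background: 27.9% of 17918 genes were called higher, and 59.2% in either direction), with a median log2 difference of 4.85. The smallest was 1.09 for ATCG00500 and the largest 8.15 for ATCG00630, with adjusted p = 3.7e-05 and 2.81e-15 (edgeR). Fitted values follow TMM scaling between the tissues and are not ratios of the CPM given above. For ATCG00500, whose CPM overlapped between the tissues, the fitted difference was larger than its CPM show, so its call rests on that scaling. For genes that passed through shoots only levels are given. Over the 16 libraries of a tissue, mean CPM was 610 in shoots and 5.01 in roots for ATCG00020. It was 388 and 5.83 for ATCG01010, and 443 and 3.85 for ATCG00420. ATCG00350 had no count in the 4 WT root libraries under [nS] and 14.7 CPM in WT shoots. With library sizes set to the plastid counts, so that each gene is read as a part of the plastid RNA, 9 of the 48 genes were called higher in shoots and 20 lower.

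The genotypes were compared within each tissue and sulfur condition. The share of counts in plastid genes did not separate q-lsu-KO from WT in any of the 4 comparisons. Under [dS] it was 5.35% ± 0.380 in q-lsu-KO shoots and 4.83% ± 0.370 in WT shoots (SD, n = 4 each, exact permutation p = 0.114). Under [nS] it was 4.73% ± 0.271 in q-lsu-KO shoots and 5.05% ± 0.213 in WT shoots (n = 4 each, exact permutation p = 0.143). In roots it was 0.385% ± 0.0173 in q-lsu-KO and 0.378% ± 0.00811 in WT under [dS] (n = 4 each, exact permutation p = 0.514), and 0.299% ± 0.0503 in q-lsu-KO and 0.269% ± 0.0243 in WT under [nS] (n = 4 each, exact permutation p = 0.343). All groups overlapped.

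In shoots under [dS], 4 of the 81 plastid genes tested were called, 3 higher and 1 lower in q-lsu-KO. The share over all 14593 genes was 4.17% (3.53% higher and 0.637% lower), so that 4.94% of the plastid genes is near the background. ATCG00120 had 128, 96.3, 112 and 105 CPM in q-lsu-KO shoots, against 61.7, 74.7, 63.7 and 83.2 CPM in WT shoots. The lowest mutant library was above the highest WT library, and the log2 fold change was 0.66 ± 0.11 (SE, edgeR adjusted p = 4.99e-05). ATCG00070 had 248, 223, 235 and 171 CPM in q-lsu-KO, against 103, 72.9, 145 and 144 CPM in WT, again without overlap (log2 fold change 0.93 ± 0.22 SE, edgeR adjusted p = 0.0272). ATCG00620 was a low gene, with 11.9, 11.6, 14.6 and 8.82 CPM in q-lsu-KO and 4.71, 3.45, 5.25 and 8.20 CPM in WT (log2 fold change 1.09 ± 0.28 SE, edgeR adjusted p = 0.0106). ATCG00050 was the gene called lower, with 19.9, 13.5, 18.2 and 17.1 CPM in q-lsu-KO and 30.9, 38.0, 21.7 and 18.7 CPM in WT, where the lowest WT library lay among the mutant ones (log2 fold change -0.66 ± 0.19 SE, edgeR adjusted p = 0.037).

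The number called here rested on single libraries. It was 14 without WT replicate 4, and 2 without q-lsu-KO replicate 1, q-lsu-KO replicate 3 or WT replicate 1. The fitted log2 fold change was above 0 for 66 of the 81 genes, with a median of 0.28, against -0.02 over all genes. With library sizes set to the plastid counts these medians were 0.10 and -0.19. For the same contrast under [nS] it was below 0 for 55 of 81 genes in shoots. In roots it was above 0 for 43 of 48 under [nS] and 36 of 48 under [dS]. The genes share libraries, and the share of all genes above 0 is not given, so these signs are a description and not a test.

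In shoots under [nS], edgeR called 0 of the 81 plastid genes between q-lsu-KO and WT (background 4.82% of 14593 genes). At an unadjusted p under 0.05 there were 8, and DESeq2 called 1 at the adjusted p and fold limits. No share over all genes is given at the unadjusted threshold, here or below, so such counts cannot be read as an excess. In roots, 0 of the 48 genes tested were called under either condition, against backgrounds of 0.163% of 15971 genes under [nS] and 0.157% under [dS]. At an unadjusted p under 0.05 there were 11 genes under [nS] (DESeq2 called 1) and 4 under [dS] (DESeq2 called 0). The backgrounds do not apply to these unadjusted counts. The number called in [nS] roots was 0 to 4 when 1 library at a time was left out. The 4 were found without q-lsu-KO replicate 1, and 1 without q-lsu-KO replicate 2 or WT replicate 1. In shoots 1 gene was called without WT replicate 2.

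The plastid share of root counts was higher under [dS] than under [nS] in all libraries of both genotypes, though not past the threshold once adjusted. In WT roots it was 0.378% ± 0.00811 under [dS] and 0.269% ± 0.0243 under [nS], a 1.41-fold difference (SD, n = 4 each, exact permutation p = 0.0286). In q-lsu-KO roots it was 0.385% ± 0.0173 under [dS] and 0.299% ± 0.0503 under [nS], a 1.299-fold difference (n = 4 each, exact permutation p = 0.0286). Adjusted over the 9 share comparisons made, these p-values were 0.0857, which does not pass 0.05. The sum of the 12 shoot markers in roots was 235 ± 140 CPM under [dS] and 317 ± 135 CPM under [nS] in WT, and 154 ± 26.7 CPM under [dS] and 263 ± 133 CPM under [nS] in q-lsu-KO (SD, n = 4 each), so that the mean shoot marker level was not higher in the [dS] roots. By their means, the root markers were higher under [dS] in both genotypes, and the mitochondrial share was higher in WT alone. The sum of the 5 root markers was 6310 ± 831 CPM under [dS] and 5217 ± 415 CPM under [nS] in WT, and 6669 ± 472 CPM under [dS] and 5669 ± 294 CPM under [nS] in q-lsu-KO (SD, n = 4 each). The mitochondrial share was 1.93% ± 0.107 under [dS] and 1.58% ± 0.343 under [nS] in WT, and 2.13% ± 0.140 under [dS] and 2.16% ± 0.183 under [nS] in q-lsu-KO (SD, n = 4 each). Their part in the root result was not tested.

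In shoots the share differed less. It was 5.35% ± 0.380 under [dS] and 4.73% ± 0.271 under [nS] in q-lsu-KO (n = 4 each, exact permutation p = 0.0571), and 4.83% ± 0.370 under [dS] and 5.05% ± 0.213 under [nS] in WT (n = 4 each, exact permutation p = 0.371). The [dS] and [nS] groups overlapped in both genotypes. Other signals moved with sulfur in the same shoot libraries. The sum of the 12 shoot markers, which are nuclear genes, was 61612 to 70863 CPM under [dS] and 79003 to 86913 CPM under [nS], and the mitochondrial share was 0.189% to 0.293% under [dS] and 0.129% to 0.148% under [nS]. Their part in the plastid results was not tested.

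Gene by gene, q-lsu-KO shoots had the largest number of plastid genes called among the 4 sulfur comparisons within a tissue. Of 81 tested, 25 were called higher and 4 lower under [dS] than under [nS], which is 35.8% of them, against 12.1% of all 14593 genes. For higher calls alone the shares were 30.9% of plastid genes and 6.62% of all genes. In WT shoots 8 were called higher and 4 lower, or 14.8%, against 11.4% of all genes (6.18% higher and 5.24% lower). With library sizes set to the plastid counts the split was 26 higher and 4 lower in q-lsu-KO, and 13 higher and 1 lower in WT. Of the 8 genes called higher in WT, 6 (75.0%) were also among the 25 called higher in q-lsu-KO (24.0% of those). They were ATCG00070, ATCG00270, ATCG00560, ATCG00580, ATCG00680 and ATCG01050. The overlap over all genes called is not given, so these percentages describe the plastid genes alone. That more genes passed in the mutant does not show that the genotypes differ. The genotype by sulfur interaction called 0 plastid genes in shoots with edgeR (background 0.425% of all genes called), and DESeq2 called 0. At an unadjusted p under 0.05 there were 22, without a share over all genes at that threshold.

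**Figure D3:**
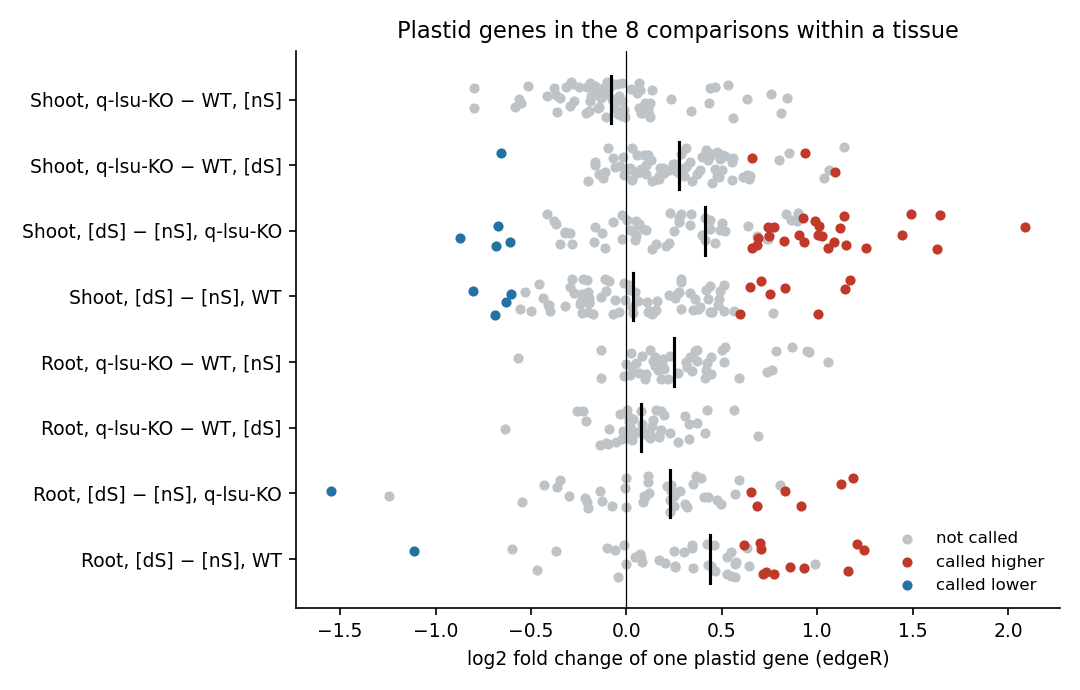
Fitted log2 fold change (x axis) of each plastid gene in the 8 comparisons within a tissue (rows), with 81 genes in shoots and 48 in roots, coloured by call, and the median of each row as a black bar. The widest spread to the right is that of q-lsu-KO shoots under [dS] against [nS], where 25 genes were called higher and the highest, ATCG00350, reached 2.09.

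ATCG00070 rose under [dS] in shoots of both genotypes. It had 248, 223, 235 and 171 CPM under [dS] and 69.99, 80.4, 61.4 and 55.6 CPM under [nS] in q-lsu-KO (log2 fold change 1.64 ± 0.24 SE, edgeR adjusted p = 0.000296). In WT it had 103, 72.9, 145 and 144 CPM under [dS] and 83.6, 47.4, 50.7 and 65.4 CPM under [nS] (0.83 ± 0.24 SE, edgeR adjusted p = 0.025). The mutant groups were far apart, whereas in WT the lowest [dS] library lay below the highest [nS] library. In roots the same gene was near the limit of detection, with at most 5.02 CPM in any library.

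ATCG01050 was the most abundant of the genes with a large rise. In q-lsu-KO shoots it had 1025, 1304, 1591 and 754 CPM under [dS] and 399, 525, 327 and 331 CPM under [nS], a log2 fold change of 1.49 ± 0.31 (SE, edgeR adjusted p = 0.00364). In WT shoots it had 568, 434, 874 and 752 CPM under [dS] and 428, 225, 253 and 204 CPM under [nS], a log2 fold change of 1.17 ± 0.31 (SE, edgeR adjusted p = 0.0149). The groups did not overlap in either genotype, though in WT the gap was 434 against 428 CPM.

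ATCG00350 had the largest fitted change, 2.09 ± 0.54 (log2, SE, edgeR adjusted p = 0.0138), but a low level. It had 71.7, 23.9, 34.7 and 20.0 CPM in q-lsu-KO shoots under [dS] and 8.91, 6.43, 10.3 and 6.54 CPM under [nS]. In WT shoots it had 18.9, 9.93, 23.1 and 16.0 CPM under [dS] and 8.36, 25.1, 9.72 and 15.6 CPM under [nS], where the groups overlapped and the gene was not called. ATCG00430 had 289, 207, 210 and 199 CPM under [dS] and 98.6, 107, 67.1 and 89.9 CPM under [nS] in q-lsu-KO shoots (log2 fold change 1.26 ± 0.21 SE, edgeR adjusted p = 0.00068). In WT shoots it had 145, 148, 155 and 229 CPM under [dS] and 134, 90.8, 110 and 137 CPM under [nS], with a log2 value of 0.45 that did not pass (edgeR adjusted p = 0.13).

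ATCG00480 changed with little spread. It had 969, 942, 914 and 954 CPM under [dS] and 573, 548, 540 and 573 CPM under [nS] in q-lsu-KO shoots (log2 fold change 0.69 ± 0.06 SE, edgeR adjusted p = 6.12e-12). In WT shoots it had 986, 866, 961 and 985 CPM under [dS] and 655, 604, 574 and 619 CPM under [nS], where the log2 value of 0.56 ± 0.06 passed on p (edgeR adjusted p = 6.34e-10) but lay under the fold limit. The [dS] and [nS] libraries were well apart in both genotypes.

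Among the other genes called higher in q-lsu-KO shoots, log2 fold changes were 1.63 for ATCG00290, 1.44 for ATCG00065, 1.15 for ATCG01110 and 1.14 for ATCG00280, and cemA (ATCG00530) rose by 0.77 ± 0.21 (SE, edgeR adjusted p = 0.0141). The smallest called rise was 0.66 for ATCG01100. The 25 genes had mean shoot levels of 11.7 CPM (ATCG00290) to 2466 CPM (ATCG00300), with a median of 76.4 CPM, against a median of 218 CPM for the 52 genes that were not called. In WT shoots the other called rises were 1.15 for ATCG00580, 1.00 for ATCG00110, 0.75 for ATCG00760, 0.70 for ATCG00560, 0.65 for ATCG00680 and 0.60 for ATCG00270. The number called in WT shoots was 4 without WT replicate 4 under [nS] and 7 without WT replicate 3 under [nS].

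The genes that fell in shoots were few, with a median level of 669 CPM in each genotype. ATCG01130, ATCG00380 and ATCG00820 fell in both genotypes, ATCG00650 was called in WT and ATCG00050 in q-lsu-KO. ATCG01130 had 1232, 1222, 1126 and 1141 CPM under [dS] and 1890, 1827, 1729 and 1770 CPM under [nS] in q-lsu-KO shoots (log2 fold change -0.68 ± 0.06 SE, edgeR adjusted p = 3.47e-12). In WT shoots it had 1399, 1334, 1231 and 1174 CPM under [dS] and 1914, 1894, 1980 and 2098 CPM under [nS] (-0.69 ± 0.06 SE, edgeR adjusted p = 1.13e-12). The values in the 4 replicates of each group lay close together, and the groups were far apart.

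ATCG00380 had 582, 652, 608 and 593 CPM under [dS] and 1032, 899, 840 and 922 CPM under [nS] in q-lsu-KO shoots, and 660, 730, 625 and 718 CPM under [dS] and 941, 978, 1014 and 1099 CPM under [nS] in WT shoots. Both genotypes showed the same fall without overlap, with log2 fold changes of -0.67 ± 0.07 in q-lsu-KO and -0.63 ± 0.07 in WT (SE, edgeR adjusted p = 1.98e-10 and 6.47e-10). ATCG00650 had 222, 235, 209 and 253 CPM under [dS] and 402, 369, 352 and 402 CPM under [nS] in WT shoots (-0.80 ± 0.08 SE, edgeR adjusted p = 3.41e-10). In q-lsu-KO shoots it had 251, 269, 274 and 326 CPM under [dS] and 361, 387, 334 and 304 CPM under [nS] (-0.38 ± 0.08 SE, edgeR adjusted p = 0.000534), under the fold limit and with overlap. ATCG00050, a gene of low level, had a log2 fold change of -0.87 ± 0.21 in q-lsu-KO shoots (SE, edgeR adjusted p = 0.00184).

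The most abundant plastid gene of shoots, ATCG00470, was also lower under [dS], by less than the fold limit. It averaged 8384 ± 676 CPM under [dS] and 9964 ± 287 CPM under [nS] in q-lsu-KO, and 8355 ± 130 CPM under [dS] and 10489 ± 592 CPM under [nS] in WT (SD, n = 4 each). The log2 fold changes were -0.32 ± 0.05 and -0.40 ± 0.05 (SE, edgeR adjusted p = 5.92e-06 and 6.29e-08). Its part of the plastid counts was 15.7% under [dS] and 21.1% under [nS] in q-lsu-KO, and 17.4% under [dS] and 20.8% under [nS] in WT.

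**Figure D4:**
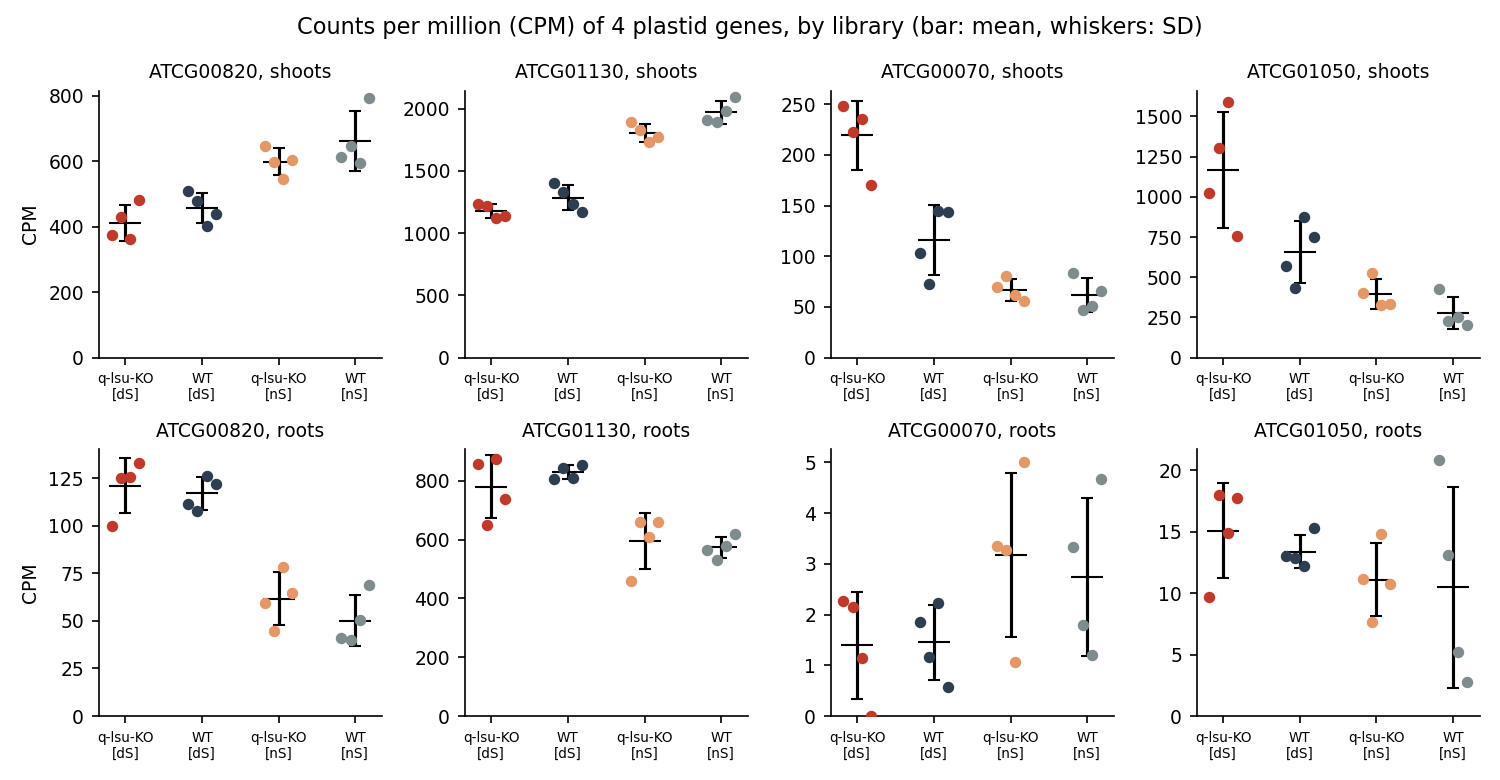
CPM (y axes, each with its own scale from 0) of ATCG00820, ATCG01130, ATCG00070 and ATCG01050 in shoots (upper row) and roots (lower row) by group (x axes), with 1 point per library, the mean as a bar and the SD as whiskers. The means of ATCG00820 and ATCG01130 are lower under [dS] in shoots and higher under [dS] in roots, and those of ATCG00070 and ATCG01050 are higher under [dS] in shoots.

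In roots, more plastid genes were higher than lower under [dS]. Of 48 tested, 11 were called higher and 1 lower in WT, or 25.0%, against 6.82% of all 15971 genes (3.41% higher and 3.42% lower). In q-lsu-KO 6 were called higher and 1 lower, or 14.6%, against 6.15% of all genes (2.77% higher and 3.38% lower). ATCG00820, ATCG00180 and ATCG00790 were called higher in both genotypes, which is 27.3% of the WT genes and 50.0% of the q-lsu-KO genes called higher. Here too no overlap over all genes called is given for comparison. The interaction of genotype and sulfur in roots called 0 plastid genes with edgeR (background 0.025% of all genes called), and DESeq2 called 0. At an unadjusted p under 0.05 there were 7, without a share over all genes at that threshold. The direction depends on the scale used: with library sizes set to the plastid counts, 3 were called higher and 5 lower in WT, and 2 higher and 5 lower in q-lsu-KO.

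ATCG00820 had the clearest response in roots. In q-lsu-KO roots it had 100.1, 125, 125 and 133 CPM under [dS] and 59.3, 44.7, 78.5 and 64.5 CPM under [nS] (log2 fold change 0.92 ± 0.13 SE, edgeR adjusted p = 1.18e-06). In WT roots it had 112, 108, 126 and 122 CPM under [dS] and 40.8, 40.0, 50.6 and 69.0 CPM under [nS] (1.25 ± 0.13 SE, edgeR adjusted p = 1.18e-10). The groups did not overlap in either genotype. It remained called higher in WT and in q-lsu-KO with library sizes set to the plastid counts.

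ATCG00180 had 58.3, 42.8, 44.5 and 45.4 CPM under [dS] and 31.6, 22.7, 15.3 and 15.9 CPM under [nS] in WT roots (1.21 ± 0.21 SE, edgeR adjusted p = 0.000111). The protease gene clpP (ATCG00670) had 102, 95.1, 108 and 98.7 CPM under [dS] and 60.8, 53.1, 58.3 and 75.6 CPM under [nS] in WT roots, with no overlap (0.73 ± 0.11 SE, edgeR adjusted p = 1.8e-07). In q-lsu-KO roots clpP had 87.0, 74.1, 94.0 and 92.4 CPM under [dS] and 51.5, 76.3, 71.1 and 73.1 CPM under [nS], and its log2 value of 0.31 did not pass (edgeR adjusted p = 0.082). In shoots clpP stayed between 191 and 282 CPM in all 16 libraries. The ribosomal protein gene rpl20 (ATCG00660) was between 25.9 and 73.9 CPM in shoots and between 6.68 and 21.2 CPM in roots, and was not called in any comparison within a tissue.

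ATCG00730 led the q-lsu-KO list in roots, with 17.6, 26.6, 17.2 and 15.1 CPM under [dS] and 7.84, 4.36, 5.30 and 12.9 CPM under [nS] (1.19 ± 0.30 SE, edgeR adjusted p = 0.0034). The gene called lower in q-lsu-KO roots was ATCG00630, with 9.66, 8.63, 4.58 and 10.7 CPM under [dS] and 4.48, 15.3, 39.3 and 30.8 CPM under [nS] (-1.55 ± 0.40 SE, edgeR adjusted p = 0.0128). The [nS] libraries of ATCG00630 spanned the [dS] ones, so that the groups overlapped. In WT roots ATCG01090 was called lower, with 6.20, 8.21, 8.35 and 5.11 CPM under [dS] and 10.8, 15.5, 19.7 and 10.3 CPM under [nS], all [dS] values being below all [nS] values (-1.11 ± 0.27 SE, edgeR adjusted p = 0.00173). The other rises in WT roots were 1.16 for ATCG00770, 0.93 for ATCG00360, 0.86 for ATCG00440, 0.77 for ATCG01020, 0.71 for ATCG00790, 0.70 for ATCG00470, 0.70 for ATCG00650 and 0.61 for ATCG00330, and those in q-lsu-KO roots were 1.12 for ATCG00760, 0.83 for ATCG00790, 0.68 for ATCG00740 and 0.65 for ATCG00180.

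ATCG00820 in both genotypes and ATCG00650 in WT thus fell in shoots and rose in roots under [dS]. The difference of the responses, shoot minus root, was tested in the model of all 32 libraries, a comparison added after the within-tissue results had been seen. Over the 48 genes that passed the filter in roots, the response in WT shoots was lower than in WT roots for 15 genes (31.3%) and higher for 2 (4.17%), against 2.44% of 17918 genes called lower and 4.07% called higher (6.51% in all). In q-lsu-KO it was lower for 9 genes (18.8%) and higher for 2, against 2.73% of all genes called lower and 4.97% called higher (7.7% in all). Of the 15 genes of WT and the 9 of q-lsu-KO, 8 were shared (53.3% and 88.9%): ATCG00380, ATCG00440, ATCG00470, ATCG00740, ATCG00790, ATCG00820, ATCG01020 and ATCG01130. The overlap over all genes called is again not given.

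The largest of these differences in WT was that of ATCG00820, at -1.83 ± 0.19 (log2, SE, edgeR adjusted p = 4.57e-08), and it was -1.51 ± 0.20 in q-lsu-KO (edgeR adjusted p = 3.05e-06). ATCG00820 had 374, 430, 361 and 481 CPM under [dS] and 645, 597, 545 and 604 CPM under [nS] in q-lsu-KO shoots, and 509, 479, 403 and 437 CPM under [dS] and 612, 646, 594 and 793 CPM under [nS] in WT shoots. In shoots all [dS] libraries of this gene were below all [nS] libraries, and in roots all were above. ATCG01130, the most abundant plastid gene of roots, had 857, 648, 876 and 737 CPM under [dS] and 458, 658, 608 and 661 CPM under [nS] in q-lsu-KO roots, and 807, 845, 811 and 855 CPM under [dS] and 564, 532, 579 and 620 CPM under [nS] in WT roots. These groups were apart in WT and overlapped in q-lsu-KO, and neither root change passed the fold limit. Its difference of responses was -1.20 ± 0.11 in WT and -1.02 ± 0.12 in q-lsu-KO (log2, SE, edgeR adjusted p = 2.67e-12 and 7.95e-10).

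ATCG00650 had a difference of -1.48 ± 0.23 in WT (log2, SE, edgeR adjusted p = 6.97e-06) and ATCG00730 one of -1.58 ± 0.30 in q-lsu-KO (edgeR adjusted p = 0.000153). ATCG00480 went the other way, at 0.61 ± 0.16 in WT and 0.90 ± 0.17 in q-lsu-KO (log2, SE, edgeR adjusted p = 0.00587 and 0.000126), as it rose in shoots and averaged 36.7 CPM under [dS] and 37.0 CPM under [nS] in WT roots. These calls too depend on the scale. With library sizes set to the plastid counts, 7 of the 48 genes were called lower and 9 higher in q-lsu-KO, and 2 lower and 9 higher in WT. ATCG00820 and ATCG00650 kept their lower call in WT on that scale, and ATCG00820 and ATCG01130 kept it in q-lsu-KO.

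**Figure D5:**
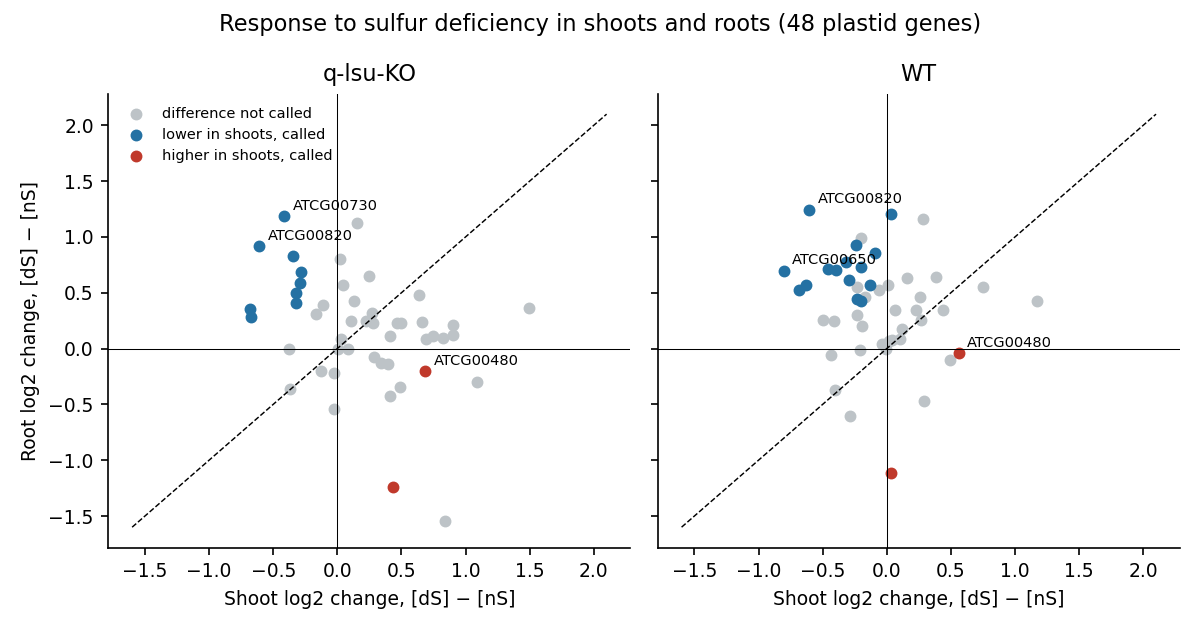
Log2 change under [dS] against [nS] in roots (y axis) and in shoots (x axis) for the 48 plastid genes that passed the filter in roots, in q-lsu-KO (left) and WT (right), coloured by the call on the difference of the responses, with a dashed line where they are equal. The 9 genes in q-lsu-KO and 15 in WT called lower in shoots lie above the line, led by ATCG00820 in WT at a difference of -1.83.

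The genotype effect also differed between tissues for a pair of genes under [nS]. ATCG00360 and ATCG00650 had a lower q-lsu-KO to WT difference in shoots than in roots, by -1.29 ± 0.30 and -0.95 ± 0.25 (log2, SE, edgeR adjusted p = 0.0182 and 0.0228, background 1.89% in either direction and 0.502% lower). In roots ATCG00360 had 81.7, 51.2, 99.7 and 88.8 CPM in q-lsu-KO and 28.3, 40.6, 50.6 and 46.7 CPM in WT under [nS], and in shoots 160, 168, 115 and 111 CPM in q-lsu-KO and 190, 154, 163 and 216 CPM in WT. The root groups did not overlap, but the root difference alone was not called. Neither gene was called without q-lsu-KO root replicate 3 or replicate 4 under [nS], and 1 was called without replicate 2. Under [dS] edgeR called 0 plastid genes for this difference (background 1.73% of all genes called), and DESeq2 called 1. At an unadjusted p under 0.05 there were 4, without a share over all genes at that threshold.

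Nuclear genes for the plastid transcription and RNA machinery were examined beside the plastid genes. In shoots under [dS], 7 of the 13 polymerase-associated proteins were called lower in q-lsu-KO and 8 of 13 in WT, and 0 higher in either, while 5.44% of all genes were called lower in q-lsu-KO and 5.24% in WT. These proteins bind the plastid-encoded polymerase. FLN1, a fructokinase-like protein of this complex, had log2 fold changes of -0.64 ± 0.20 in q-lsu-KO and -1.18 ± 0.17 in WT (SE, edgeR adjusted p = 0.0136 and 5.1e-07), and TRXZ, its thioredoxin, had -0.59 ± 0.12 in q-lsu-KO and -0.61 ± 0.11 in WT (SE, edgeR adjusted p = 0.000297 and 4.45e-05). Of the 2 phage-type polymerases tested, 1 was called lower in each genotype and the other was not called. The called gene, RPOTp, fell by 0.71 in q-lsu-KO and by 0.70 in WT on the log2 scale (edgeR adjusted p = 0.00473 and 0.000657). Of the 6 sigma factors only SIG2 was called in q-lsu-KO, at -0.60 ± 0.10 (SE, edgeR adjusted p = 1.22e-05), and 0 in WT. Of the 7 genes for plastid RNA processing and decay, 2 were called lower in q-lsu-KO and 1 in WT, and the others did not pass. PNP, called in both, a polynucleotide phosphorylase that adds and removes A tails in plastids, was at -0.67 ± 0.16 in q-lsu-KO and -0.68 ± 0.14 in WT (SE, edgeR adjusted p = 0.00171 and 0.000221).

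The nuclear Rubisco small subunits fell as well, 3 of 4 in q-lsu-KO shoots and 4 of 4 in WT shoots, for example RBCS1B with -0.85 ± 0.07 and -1.22 ± 0.07 (SE, edgeR adjusted p = 1.83e-11 and 8.34e-16). In the same shoots 25 plastid genes in q-lsu-KO and 8 in WT were called higher, and 4 were called lower in each. Between genotypes, 1 of the 13 polymerase-associated proteins (PAP11, log2 fold change -0.70, edgeR adjusted p = 0.0222) was called lower in q-lsu-KO shoots under [nS], where 4.82% of all genes were called. In roots the response to [dS] called 1 of the 23 genes of these lists that were tested there, in a comparison in which 6.15% of all genes were called. It was RHON1, which takes part in plastid RNA cleavage and was higher in q-lsu-KO (0.84 ± 0.24 SE, edgeR adjusted p = 0.00989). In WT under [nS], 22 of these 23 genes were called higher in shoots than in roots, where 27.9% of all genes were called higher.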

How the data were processed

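Libraries of 3′RNA-seq were made from 32 RNA samples with barcoded oligo(dT) primers, pooled into 4 sequencing pools. The authors deposited raw counts per gene, 1 table per library. Their processing notes list STAR (2.7.8a), the TAIR10 genome and DESeq2. Which program counted the reads, against which gene models, and whether molecular identifiers were collapsed is not given in the sources used here. Reads were not realigned. CPM and plastid shares were computed from all rows, with Wilson intervals at 95%, which cover counting error only. Depth was 893225 to 2857129 counts per library, of which 2150 to 142692 were plastid counts.

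Counts were tested with edgeR 4.0.16 (R 4.3.3, limma 3.58.1) by its robust two-sided quasi-likelihood F-test, after TMM scaling and a filterByExpr minimum of 10. Each tissue had its own model of 4 groups (16 libraries), and tissues were compared in a model of all 32. A call needed a fold change over 1.5 and a p under 0.05 after Benjamini-Hochberg adjustment over all genes tested. Shares were compared by exact two-sided permutation tests on the log2 scale. The script was tested on simulated data. Replicates are called biological in the study, but the labels do not state separate cultures, and the p-values cover only the spread among these libraries, which may be technical. Replicate numbers showed no pairing of q-lsu-KO with WT within a tissue and sulfur condition. Deviations of these same-numbered libraries correlated by -0.106 to 0.0343 in 16 pairs. Pairing by number between tissues or between sulfur conditions was not checked. Replicates differed by more than sampling noise in all 48 pairs.

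The genes, lists and tests were chosen with earlier results of these data known. The named genes were the 10 highest by mean CPM in each tissue, up to 8 called rises and 8 called falls per comparison, and the 5 largest tissue differences. ATCG00480 and cemA in shoots, ATCG00640 and the members just inside or outside a limit were named after their values were seen. Plastid genes that were to be named by symbol (psbA, rbcL and the ribosomal RNAs), and functional lists of plastid genes, could not be picked out here. The files and the reference give those symbols no identifier. Their identifiers, where present in the count tables, were handled like those of the other members. Sequences are from RefSeq (TAIR10.1). Alternatives were DESeq2 1.42.0, RLE, upper-quartile and nuclear-only scaling, 3 other filters, a replicate block, models of 8 libraries, no fold limit, leaving out each library and, added after seeing the data, library sizes set to the plastid counts and the test of the difference of sulfur responses.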

Additional observations from a re-analysis of the deposited data

Results flagged for a closer look

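In groups of 4, a library was marked where its gap to the nearest of the others exceeded Dixon's 95% critical value as a part of the group's range. Of 188 groups examined (plastid share and the CPM of 23 genes) 11 were marked, where chance marks about 9.4. The plastid share of q-lsu-KO shoots under [dS] was 4.79% in replicate 4, against 5.50% to 5.60% in the others. In the same library ATCG01090 was at 331 CPM, against 458 to 472. ATCG00430 was high in q-lsu-KO replicate 1 under [dS] in shoots (288.8 CPM, against 199 to 210) and in WT replicate 4 under [dS] in shoots (229 CPM, against 145 to 155). In shoots under [nS], ATCG00660 was at 59.5 CPM in WT replicate 1, against 40.0 to 43.1, and ATCG00730 at 190 CPM in q-lsu-KO replicate 3, against 208 to 209. In roots, ATCG00500 was at 326 CPM in q-lsu-KO replicate 4 under [dS], against 283 to 289, ATCG00120 at 5.33 CPM in the same library, against 1.14 to 1.44, and ATCG00180 at 58.3 CPM in WT replicate 1 under [dS], against 42.8 to 45.4. ATCG01090 was at 5.45 CPM in q-lsu-KO root replicate 2 under [nS], against 17.0 to 17.9, and ATCG00620 at 1.61 CPM in WT root replicate 3 under [nS], against 0 in the others.

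Effects that differed between the tissues by edgeR's test of the difference itself (adjusted p under 0.05 and a fold over 1.5) were marked as well, among the 48 genes that passed the filter in roots. For the genotype effect under [nS], shoot minus root, they were ATCG00360 (-1.29, log2) and ATCG00650 (-0.95). For the sulfur response in q-lsu-KO they were ATCG00380 (-0.94), ATCG00440 (-0.86), ATCG00470 (-0.80), ATCG00480 (0.90), ATCG00640 (1.69), ATCG00730 (-1.58), ATCG00740 (-0.95), ATCG00790 (-1.16), ATCG00820 (-1.51), ATCG01020 (-0.72) and ATCG01130 (-1.02). For the sulfur response in WT they were ATCG00170 (-0.61), ATCG00180 (-1.16), ATCG00330 (-0.91), ATCG00360 (-1.16), ATCG00380 (-1.19), ATCG00440 (-0.94), ATCG00470 (-1.09), ATCG00480 (0.61), ATCG00650 (-1.48), ATCG00670 (-0.91), ATCG00740 (-0.70), ATCG00790 (-1.15), ATCG00800 (-0.67), ATCG00820 (-1.83), ATCG01020 (-1.08), ATCG01090 (1.16) and ATCG01130 (-1.20).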

How the results depend on the processing

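None of the 73 named pairs of gene and comparison changed sign under the alternatives other than leaving out libraries. With library sizes set to the plastid counts, 22 of them lost their call. Outside those pairs, ATCG00500, ATCG01130, ATCG00740, ATCG00790 and clpP (ATCG00670), among others, did change sign. They were called higher in WT shoots than in WT roots under [nS] with all counts, and lower with library sizes set to the plastid counts. The balance of rises and falls did turn with library sizes set to the plastid counts: in WT roots under [dS] it was 3 higher and 5 lower (11 and 1 with all counts), and in q-lsu-KO roots 2 and 5 (6 and 1). For the difference of sulfur responses in WT it was 9 and 2 over the 48 genes that passed the filter in roots (2 and 15). Numbers of plastid genes called moved by more than 1.5 times as follows. Under [nS], q-lsu-KO against WT in shoots (0) gave 1 with DESeq2, 1 with no filter and 2 in the model of 8 libraries, and in roots (0) gave 1 with DESeq2, 4 with no filter, 1 in the model of 8 libraries and 1 with library sizes set to the plastid counts. Under [dS] the shoot comparison (4) gave 8 with no filter and 8 with no fold limit. The response to [dS] gave 26 in WT shoots (12) and 13 in q-lsu-KO roots (7) with no fold limit. The shoot interaction of genotype and sulfur (0) gave 1 with RLE factors, 1 with upper-quartile factors, 1 with a filter on a total of 10 and 4 with no filter, and the root interaction (0) gave 2 with no filter. The difference of genotype effects between tissues under [dS] (0) gave 1 with DESeq2, with RLE, with upper-quartile factors and with no filter. With library sizes set to the plastid counts, shoot minus root (81) gave 41, the difference of genotype effects gave 1 under [nS] (2) and 1 under [dS] (0), and the difference of sulfur responses in q-lsu-KO (13 over all 81 genes) gave 22. Counts over 81 include genes that passed the filter through shoots alone, which cannot be read for a difference. Over the 48 genes that passed in roots, that scale gave 9 higher and 20 lower for shoot minus root, and 9 and 7 for the sulfur responses in q-lsu-KO. The cause of these changes was not tested.

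Leaving out 1 library gave, for q-lsu-KO against WT in shoots, 0 to 1 under [nS] and 2 to 14 under [dS], and in roots 0 to 4 under [nS] and 0 under [dS]. For [dS] against [nS] it gave 26 to 31 in q-lsu-KO shoots, 4 to 14 in WT shoots, 5 to 9 in q-lsu-KO roots and 12 to 14 in WT roots. The interaction of genotype and sulfur gave 0 to 2 in shoots and 0 to 1 in roots. Shoot minus root stayed at 81, the genotype difference between tissues gave 0 to 3 under [nS] and 0 to 1 under [dS], and that of sulfur responses gave 11 to 14 in q-lsu-KO and 14 to 19 in WT. These counts between tissues are over 81 genes, of which only the 48 that passed the filter in roots can be read for a difference. For shoot minus root the background was 27.9% of all genes called higher. Log2 differences of the share were 0.43 to 0.54 (WT roots, [dS] against [nS]), 0.28 to 0.47 (q-lsu-KO roots), -0.10 to -0.01 (WT shoots), 0.14 to 0.23 (q-lsu-KO shoots), 4.17 to 4.28 (shoot minus root), 0.00055 to 0.05 and 0.05 to 0.24 (q-lsu-KO against WT in roots under [dS] and [nS]), and 0.10 to 0.20 and -0.13 to -0.06 (in shoots). With 3 against 4 libraries no p under 0.0571 is possible.

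With the replicate number as a block, the shoot interaction of genotype and sulfur (0) gave 3. For the share, pairing by number allows no p under 0.125, which was the value for shoot minus root (log2 4.23), WT roots (0.49) and q-lsu-KO roots (0.38) under [dS]. Without ATCG01130 the share in q-lsu-KO roots differed by 0.37 with an exact permutation p of 0.0571. The alternative that leaves out plastid ribosomal and transfer RNA genes was not run, since the files give them no names.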
